A study of Mus musculus with 4 samples.

Results

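Circulating Cd8 T cells that carried the chemokine transcript Ccl5 but not Gzmk made up 329 of the 14588 blood cells profiled. A cell was taken when it held at least 1 unique molecular identifier (UMI, 1 captured transcript) of Cd3d, Cd3e and Cd3g together, at least 2 of Cd8a and Cd8b1 together, at least 3 of Ccl5, none of Gzmk, at most 2 of the B cell gene Cd79a and at most 4 of the myeloid gene Lyz2. These cells are called Ccl5-high below. The values of these 9 genes chose the cells, so they are given as a description and carry no test. The cells came from 4 droplet 3′ libraries of peripheral blood of C57BL/6 female mice, 2 libraries at 4 months of age (young 1 and young 2) and 2 at 24 months (old 1 and old 2). Each library was a pool of the blood of 2 mice, so that a pool is the replicate (n = 2 per age) and the mice within it cannot be told apart. Ccl5-high cells numbered 116 and 81 in the young pools and 97 and 35 in the old pools. They were set against the 330 Ccl5-low Cd8 T cells, which met every other condition but held at most 2 Ccl5 UMIs. These were 223 in young 1, 98 in young 2, 5 in old 1 and 4 in old 2.

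Cd8 T cells recognize peptides on MHC class I molecules and kill the cells that present them. Naive Cd8 T cells circulate between blood and lymph nodes, guided by the chemokine receptor Ccr7, and keep the transcription factors Lef1 and Tcf7. After antigen or homeostatic cytokines, memory Cd8 T cells keep a store of Ccl5 transcript, respond to interleukin-15 through Il2rb, express the T-box factors Eomes and Tbx21 and take up receptors first described on natural killer (NK) cells.

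The pools held between 2187 and 4642 cells and between 9521253 and 18658072 UMIs, and the median depth was higher in old pools, at 3186.5 and 3482 UMIs per cell against 2332 and 2233. Ccl5-high cells were closer in depth, with a median of 3776.5, 3995, 3720 and 4275 UMIs in young 1, young 2, old 1 and old 2. A cell barcode seen in more than 1 library was found in 216 of all cells and in 4 Ccl5-high cells, and no barcode was shared between Ccl5-high cells of different libraries. Intervals given below cover counting error only.

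The markers of the label were read in the cells, of which Cd8b1 and Ccl5 are fixed by the rule. The UMIs of all cells of a class in a pool were summed, and a level is given in CPM, the UMIs of the gene per 1000000 UMIs of that sum. Cd8b1, the beta chain of the Cd8 coreceptor, stood at 1061, 942, 1024 and 1018 CPM in young 1, young 2, old 1 and old 2, and Ccl5 at 11061, 13429, 22988 and 17662 CPM. Both old pools held more Ccl5 per cell, with a median of 79 and 68 UMIs in a cell against 33.5 and 42 in the young pools. The other markers, Gzmm (granzyme M, a protease of cytotoxic granules) and Samd3, were not used by the rule and were detected in part of the cells. Gzmm had a UMI in 26.7%, 24.7%, 55.7% and 65.7% of Ccl5-high cells and in 3.14% and 2.04% of the young Ccl5-low cells. Samd3 had a UMI in 29.3%, 24.7%, 28.9% and 31.4% of Ccl5-high cells, with no age order, and in 1.35% and 1.02% of the young Ccl5-low cells. Memory genes that did not enter the choice were also present, and Il2rb, the beta chain shared by the interleukin-2 and interleukin-15 receptors, had a UMI in 60.3%, 51.9%, 47.4% and 71.4% of the cells.

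Markers of other blood cells were looked for in the summed Ccl5-high cells. Cd4 T cell markers were nearly absent, at 28.7 and 21.1 CPM in the young pools and with all 5 genes at 0 in both old pools. The 4 markers of gamma delta and innate-like T cells that could be read summed to between 0 and 30.0 CPM. NK cell markers, among them Gzma, summed to 437 and 1065 CPM in young and 341 and 166 CPM in old pools, and Ncr1, a receptor that defines NK cells, had 4, 1, 0 and 0 UMIs. The 9 B cell markers read summed to between 1058 and 1625 CPM, none at 0, with no age order, and 12 monocyte and dendritic cell markers to between 540 and 806 CPM. Red cell transcripts were high in young 2 and old 2, at 48762 and 73670 CPM against 14340 in young 1 and 18633 in old 1. Platelet transcripts moved with age, from 0 and 9.06 CPM in the young pools to 418 and 546 CPM in the old pools, and results without the cells that carried them are given below.

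Ccl5-high cells were most of the Cd8 T cells of old blood and the smaller share of those of young blood. They were 34.2% of the Ccl5-high and Ccl5-low cells together in young 1 (116 of 339 cells, 95% exact binomial interval 29.2 to 39.5%) and 45.3% in young 2 (81 of 179, 37.8 to 52.8%). In old 1 they were 95.1% (97 of 102, 88.9 to 98.4%) and in old 2 89.7% (35 of 39, 75.8 to 97.1%). The old and young pools did not overlap, and the mean was 52.7 percentage points higher in old pools, at 92.4% against 39.7%. The two-sided exact permutation test gave p = 0.333, the smallest that the 6 labellings of 2 against 2 pools allow. With Gzmk-positive Cd8 T cells, 12 and 26 in young and 30 and 20 in old pools, added to the denominator, the shares were 33.0% and 39.5% against 73.5% and 59.3%, a difference of 30.1 points with the same exact permutation p of 0.333.

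As a share of all cells, Ccl5-high cells were 2.97% and 2.10% in young and 2.09% and 1.60% in old blood. Ccl5-low cells were 5.72% and 2.54% of all cells in young but 0.108% and 0.183% in old blood. Among T cells, defined by the same Cd3, Cd79a and Lyz2 limits, Ccl5-high cells were 9.12% and 7.51% in young and 27.2% and 15.8% in old pools. Each of these comparisons also had an exact permutation p of 0.333. In a droplet assay, shares of this kind do not tell a gain of one cell type from a loss of others, and fewer cells of a type cannot be told apart from cells that missed the limits because they held less RNA.

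The limit of 3 UMIs was set against the level of free Ccl5 RNA. B cells, which should lack Ccl5, had at least 1 Ccl5 UMI in 30.3%, 36.4%, 36.3% and 19.0% of cells at a median depth of 2087.5, 2075, 3112.5 and 3102.5 UMIs, but at least 3 in 1.07%, 1.82%, 2.38% and 0.429%. A cell with 1 or 2 Ccl5 UMIs was therefore within the background. Young Cd8 T cells were deeper than young B cells, with medians of 3196 and 3156.5 UMIs in the Ccl5-low cells. Young cells at or just above 3 UMIs therefore cannot be told apart from background by these shares. Few cells lay near the limit, 5 and 4 young cells at 3 UMIs and 18 and 8 young cells at 2 UMIs, against none in either old pool. Between 3 and 11 UMIs there were 19 and 22 young cells but 1 and 0 old cells, so that the intermediate cells came from the young pools.

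**Figure D1:**
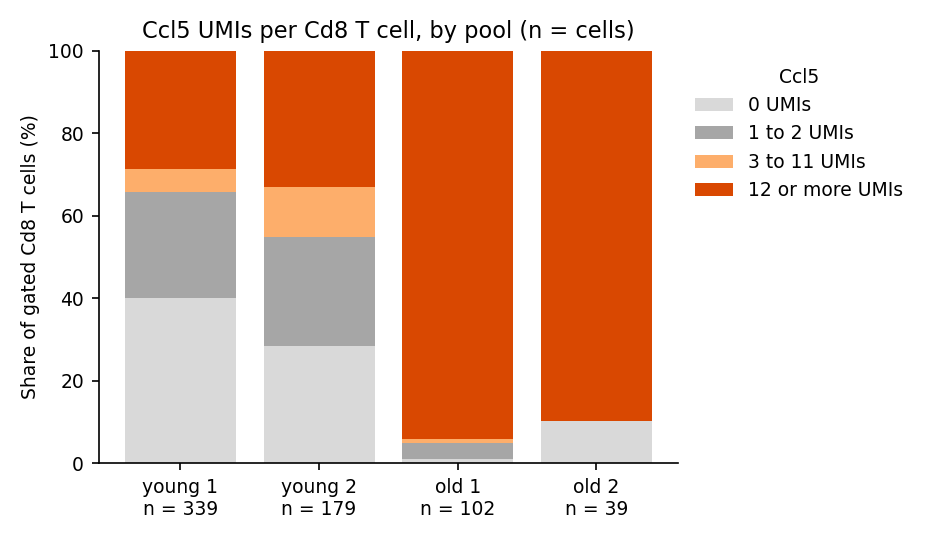
Share of gated Cd8 T cells (percent, stacked bars from 0 to 100) by the number of Ccl5 UMIs in the cell, for each of the 4 pools, with the number of cells under each bar. Cells with 12 or more UMIs were 28.6% and 33.0% of young and 94.1% and 89.7% of old gated cells, and cells with 3 to 11 UMIs were 5.60% and 12.3% in the young pools.

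The intermediate young cells lay between cells without Ccl5 and cells with 12 or more Ccl5 UMIs for some naive and memory genes. Lef1, the transcription factor of naive and stem-like T cells, was at 541 CPM in young 1 cells without Ccl5, 445 CPM at 3 to 11 UMIs and 217 CPM at 12 or more, and at 442, 179 and 140 CPM in young 2. Igfbp4, an insulin-like growth factor binding protein of naive Cd8 T cells, was at 304, 46.9 and 8.15 CPM over the same bins in young 1 and at 182, 134 and 20.7 CPM in young 2. Il2rb ran the other way, at 49.8, 211 and 315 CPM in young 1 and 39.0, 168 and 285 CPM in young 2. Some genes did not follow this order. S100a6, a small calcium-binding protein of memory and effector lymphocytes, was at 117 and 33.6 CPM in the intermediate cells of the young pools and at 410 and 595 CPM at 12 or more Ccl5 UMIs. Klrk1, the activating receptor NKG2D, had 0 UMIs in the intermediate cells of both young pools and 75 and 46 UMIs in those with 12 or more. The bin of 1 to 2 UMIs, within the background of Ccl5, had no steady place in this order, with Lef1 at 410 and 367 CPM, Igfbp4 at 257 and 270 CPM and Il2rb at 37.2 and 34.4 CPM in young 1 and young 2. The intermediate cells were also the deepest, with a median of 4629 and 4181.5 UMIs in young 1 and young 2. The medians were 3097 and 3048 UMIs without Ccl5 and 3656 and 3752 UMIs at 12 or more. Whether droplets with RNA of more than 1 cell make up part of this bin was not tested. The bins hold between 19 and 136 young cells and share the libraries, and the order is a description without a test.

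**Figure D2:**
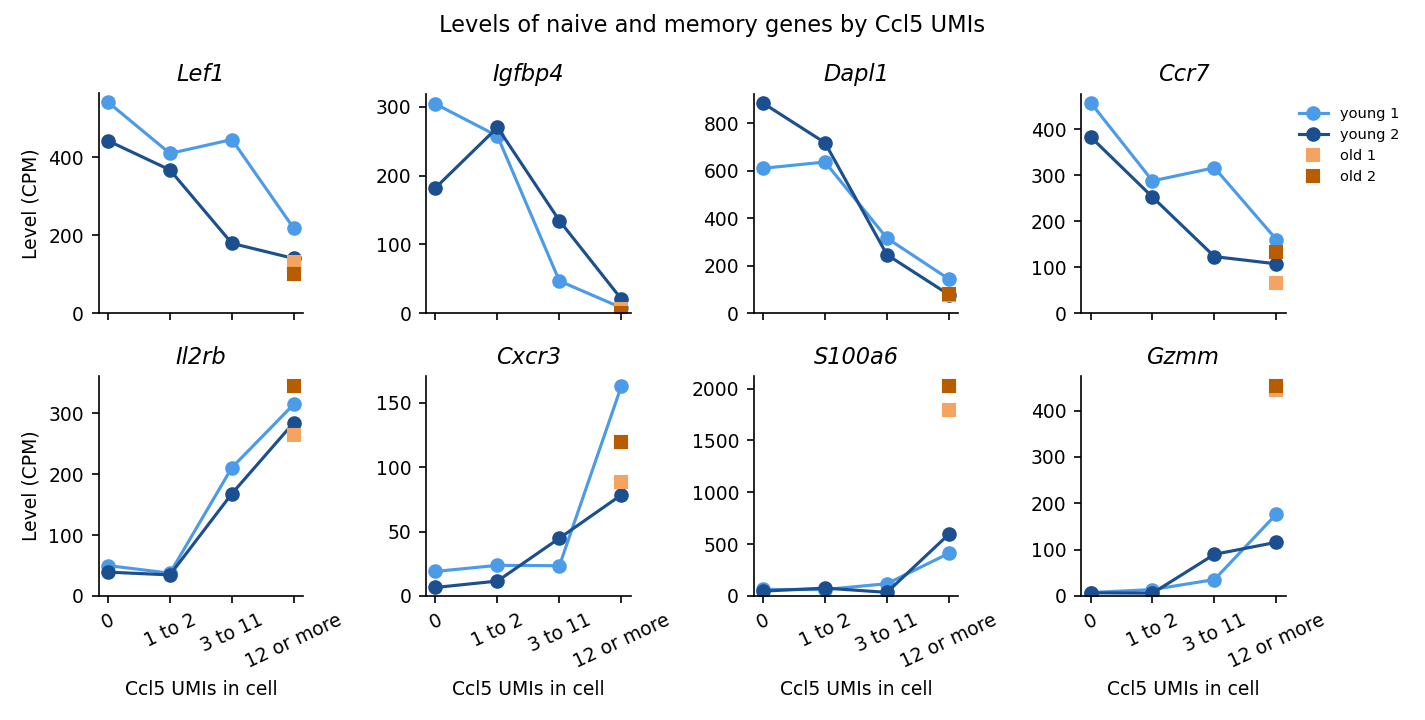
Levels of 8 genes (CPM, linear axes) in gated Cd8 T cells split by Ccl5 UMIs (0, 1 to 2, 3 to 11, 12 or more), with the 2 young pools as joined circles and the 2 old pools as squares in the highest bin, since lower bins of old pools held 4 cells at most. Lef1, Igfbp4, Dapl1 and Ccr7 are lower and Il2rb is higher at 12 or more Ccl5 UMIs than at 0 in both young pools, with some reversals between neighbouring bins, while S100a6 in old cells (1793 and 2022 CPM) lies above young cells of the same bin (410 and 595 CPM).

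Ccl5-high and Ccl5-low cells of the same pools were compared to describe what else separated them. The sums went into edgeR's quasi-likelihood test, with the pool as a block and p adjusted by Benjamini-Hochberg, over the 5328 genes with a UMI in at least 5% of the gated cells and without the 9 genes of the rule, Gzmm and Samd3. The 5% was counted over both classes together. A gene nearly absent from 1 class therefore passed through the other class, and its direction was then fixed. At an adjusted p up to 0.05, 114 genes (2.14%) differed, of which 86 (1.61%) were higher and 28 (0.526%) lower in Ccl5-high cells. The old Ccl5-low sums hold only 17189 and 11799 UMIs, so that 1 UMI there is worth 58.2 or 84.8 CPM and the comparison rests on the young pools. The same sign in every pool therefore adds little to the sign in the young pools. Without young 1 the test called 16 genes and without young 2 it called 31, all of them among the 114, and with the young pools alone it called 181, 116 higher and 65 lower, of which 112 were among the 114.

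Receptors first known from NK cells were higher in Ccl5-high cells. Of 22 such lectin-type and related receptors in the data, 11 were tested. Of these, 9 were higher in Ccl5-high cells and none was lower, with a median log2 fold change of 4.37 against 0.08 over all genes tested. Receptors nearly absent from Ccl5-low cells, among them Klrc1, Klrc2, Klra7 and Klre1, passed the filter through the Ccl5-high cells. They could only come out higher, so the count, the median and the p-values of these receptors below are a description. The summed NK cell markers were also higher, at 137 and 177 CPM in young Ccl5-low against 437 and 1065 CPM in young Ccl5-high cells, and Klrb1c (NK1.1) had 20 and 4 UMIs in young Ccl5-high and 0 in Ccl5-low cells. Without the cells that held Ncr1 or Klrb1c, which left 101 of 116, 76 of 81, 91 of 97 and 35 of 35 Ccl5-high cells, the same 9 receptors were called, at a median of 4.11. Klrc1, the inhibitory NKG2A chain, stood at 75.0, 75.5, 158 and 113 CPM in Ccl5-high cells of young 1, young 2, old 1 and old 2 and had 0 UMIs in the Ccl5-low cells of every pool. Its level in the young pools was at least 26.2-fold higher against a floor of 3 UMIs over both young Ccl5-low sums (adjusted p = 3.19e-15, and 0.0859 with DESeq2). Klrk1 was at 165, 139, 347 and 353 CPM against 2.79 and 15.2 CPM in the young Ccl5-low cells, higher by a log2 fold change of 4.37 ± 0.44 (estimate ± SE, with adjusted p = 1.02e-19). Here and below the SE was derived from the F statistic of the quasi-likelihood test and is not a spread over pools. Klre1, which pairs with other receptors of its family, was at 106, 145, 194 and 120 CPM against 2 UMIs in all young Ccl5-low cells (adjusted p = 1.56e-19). Klrc2, the activating NKG2C chain, was at 57.4, 33.2, 73.7 and 20.0 CPM against 1 UMI (adjusted p = 7.54e-09, and 0.603 without young 1). Of the Ly49 receptors, which bind MHC class I, Klra7 was at 181, 99.6, 128 and 186 CPM against 2 UMIs (adjusted p = 2.71e-23), and Klra1, Klra3 and Klra6 were also called. In the young pools the ratio of Klra7 was 76.6 (95% counting interval 20.7 to 640) and that of Klre1 63.9 (17.2 to 535). Klra and Klrc genes are near-identical copies in a cluster on chromosome 6, with Klra7 at chr6:130218605-130233322 and Klrc1 at chr6:129666015-129678973 (GRCm38, both on the minus strand), and the way reads were divided among copies makes single members uncertain. Klrd1, the partner chain of Klrc1 and Klrc2, was at 413, 332, 325 and 239 CPM in Ccl5-high and 230 and 204 CPM in young Ccl5-low cells and did not pass (log2 fold change 0.87 ± 0.27, adjusted p = 0.067).

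Memory and homing genes were the next group. Of 26 tested, 15 were higher and 1 was lower, with a median log2 fold change of 1.01. Over all genes tested 1.61% were higher and 0.526% lower. Tbx21 and S1pr5 passed the filter through the Ccl5-high cells and Itgae through the Ccl5-low cells. Their direction was fixed, so their part in the count and their p-values are a description. Il2rb was at 296, 254, 262 and 346 CPM in Ccl5-high cells and at 44.7 and 36.6 CPM in young Ccl5-low cells (log2 fold change 2.74 ± 0.31, adjusted p = 1.22e-15, higher in 4 of 4 pools). Cxcr3, the chemokine receptor that guides effector and memory cells to inflamed tissue, was at 137, 69.4, 87.4 and 120 CPM against 20.9 and 9.15 CPM (2.71 ± 0.39, adjusted p = 1.81e-09). Eomes stood at 66.2, 75.5, 120 and 133 CPM against 19.5 and 12.2 CPM (2.15 ± 0.42, adjusted p = 4.72e-05). Among these genes the classes did not overlap in the young pools. Tbx21, the other T-box factor, was at 30.9, 36.2, 24.6 and 39.9 CPM with 0 UMIs in any Ccl5-low cell, at least 11.5-fold higher in the young pools (adjusted p = 2.58e-07, and 0.153 without young 1). Ly6c2, a surface protein raised on memory Cd8 T cells, was at 1494, 1093, 1950 and 2614 CPM against 414 and 232 CPM (1.90 ± 0.36, adjusted p = 2.05e-05). Cd44, the classical surface marker of antigen experience, was at 59.6, 54.3, 92.8 and 73.2 CPM against 14.0 and 15.2 CPM (1.97 ± 0.45, adjusted p = 0.00124). S1pr5, the sphingosine receptor of circulating effector cells, had 16, 3, 20 and 7 UMIs in Ccl5-high and none in Ccl5-low cells (adjusted p = 4.93e-06, and 0.983 without young 1). The member that was lower was Itgae, the integrin chain CD103 that naive and tissue Cd8 T cells carry, at 4.41, 6.04, 8.19 and 0 CPM against 50.2 and 33.5 CPM in young Ccl5-low cells (adjusted p = 0.00057).

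Of 27 granule and effector genes tested, 12 were higher and none lower, with a median log2 fold change of 0.84. Over all genes tested 1.61% were higher and 0.526% lower. Gzmb, Fasl, Xcl1 and Ccl4, nearly absent from Ccl5-low cells, passed the filter through the Ccl5-high cells. Their direction was fixed, so their part in the count and their p-values are a description. The same holds for Plek and Osbpl3 below, which are outside this list. Gzmb, granzyme B, was at 64.0, 90.6, 131 and 46.6 CPM against 2 and 1 UMIs in young Ccl5-low cells (adjusted p = 2.85e-11), and the gene of perforin, Prf1, had 5, 3, 5 and 0 UMIs and was too low to be tested. Nkg7, a granule membrane protein, was at 1518, 1763, 1871 and 1563 CPM against 809 and 680 CPM (1.23 ± 0.35, adjusted p = 0.0278). Fasl, the death ligand, had 14, 14, 6 and 11 UMIs against 1 UMI in young Ccl5-low cells (adjusted p = 2.05e-06, and 0.0741 without young 1), and the chemokine Xcl1 had 47, 19, 23 and 5 UMIs against 3 (adjusted p = 2.65e-13, and 0.14 without young 1). Ccl4, another chemokine, was uneven, at 24.3, 441, 71.0 and 13.3 CPM, and its call (adjusted p = 2.28e-20) was lost without young 2 (adjusted p = 0.258). In young 2, 81 of its 146 UMIs came from 1 cell. Proteins of the migratory and cytoskeletal program were higher as well, with S100a6 at 355 and 444 CPM in young Ccl5-high against 61.4 and 61.0 CPM in young Ccl5-low cells (2.93 ± 0.35, adjusted p = 4.54e-14) and the galectin Lgals1 at 730 and 1204 against 317 and 165 CPM (2.47 ± 0.35, adjusted p = 3.63e-10). Of the genes outside these lists, Plek, an actin-linked signalling protein of blood cells, had 29 and 26 UMIs against 2 and 1 in the young pools (adjusted p = 6.17e-11), and Osbpl3, an oxysterol-binding protein, had 12 and 8 UMIs against none (adjusted p = 6.29e-06, and 0.436 without young 1).

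Naive genes were lower in part. Of 22 tested, 6 were lower and none higher, with a median log2 fold change of -0.52. Over all genes tested 0.526% were lower and 1.61% higher. Igfbp4 and Ccr9, with few UMIs in Ccl5-high cells, passed the filter through the Ccl5-low cells, so that their direction was fixed. Dapl1, which marks naive Cd8 T cells, was at 176, 124, 76.5 and 79.8 CPM in Ccl5-high against 621 and 796 CPM in young Ccl5-low cells (log2 fold change -1.99 ± 0.30, adjusted p = 4.56e-09, lower in 4 of 4 pools). Ccr7 was at 190, 112, 65.5 and 133 CPM against 388 and 314 CPM (-1.27 ± 0.26, adjusted p = 0.000179), and Actn1, an actin crosslinker, at 97.1, 72.4, 8.19 and 0 CPM against 208 and 201 CPM (-1.34 ± 0.28, adjusted p = 0.000185). Igfbp4 was at 15.4, 51.3, 8.19 and 0 CPM against 285 and 229 CPM (-3.06 ± 0.33, adjusted p = 9.38e-18). Lef1 was at 260, 151, 134 and 99.8 CPM against 487 and 403 CPM (-1.06 ± 0.27, adjusted p = 0.00559), and Ccr9, the gut homing receptor, was at 4.41 and 6.04 against 82.3 and 101 CPM in the young pools (-3.95 ± 0.53, adjusted p = 3.26e-11). The calls of Dapl1, Ccr7 and Actn1 were lost when either young pool was left out, as were those of most lower genes (2 lower genes were called without young 1 and 4 without young 2). Il7r, the interleukin-7 receptor, did not pass, at 293, 202, 289 and 339 CPM against 264 and 183 CPM (0.25 ± 0.27, adjusted p = 0.95). Rgcc, a regulator of the cell cycle, was lower in Ccl5-high cells under every alternative run, at 17.6, 6.04, 13.7 and 13.3 CPM against 191 and 149 CPM (-3.55 ± 0.38, adjusted p = 1.31e-17). Slamf6, a receptor of the signalling lymphocyte family, was at 94.9 and 106 against 181 and 192 CPM in the young pools (-1.04 ± 0.27, adjusted p = 0.00636), and Rapgef4, Slpi, Fam101b, Fam78a and H2-DMa were the other genes that were lower in 4 of 4 pools and ranked highest by fold.

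**Figure D3:**
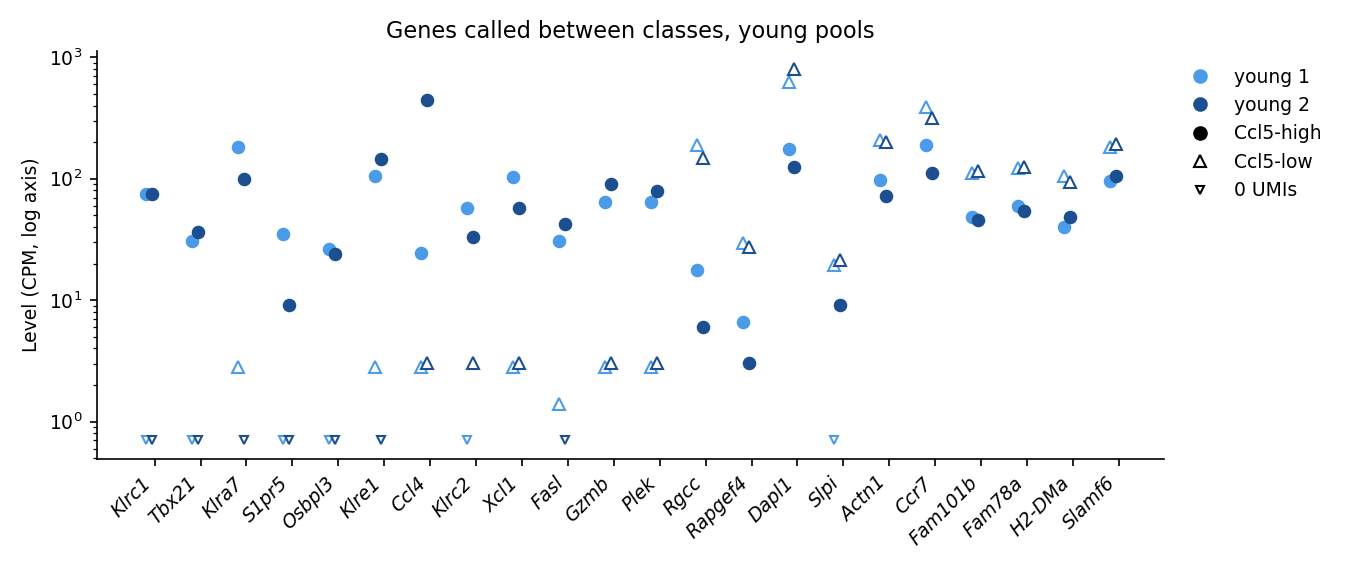
Levels (CPM, log axis) of the 12 higher and 10 lower genes with the largest fold changes among those with the same sign in all 4 pools, in Ccl5-high (filled circles) and Ccl5-low (open triangles) cells of the 2 young pools, with small inverted triangles at the foot for sums with 0 UMIs. The old pools are left out because their Ccl5-low sums hold 5 and 4 cells. For Klrc1, Tbx21, S1pr5 and Osbpl3 the Ccl5-low sums held 0 UMIs, and Dapl1 stood at 176 and 124 CPM in Ccl5-high against 621 and 796 CPM in Ccl5-low cells.

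The remaining lists separated the classes little. Of 21 genes of T cell receptor signaling, Fyn was higher, at 152 and 178 against 113 and 45.7 CPM in the young pools. Of 15 survival genes, Bcl2 (1.06 ± 0.31, adjusted p = 0.032) and the pro-apoptotic Bbc3 (1.72 ± 0.39, adjusted p = 0.00104) were higher. Stmn1, H2afz and Hmgb2 were higher of 11 cell cycle genes, and Nfkbia, an inhibitor of NF-kappa B, was lower of 21 immediate early and heat shock genes (adjusted p = 0.0497). None of 23 MHC class I, 22 interferon response or 96 ribosomal protein genes was called, at medians of 0.14, -0.33 and 0.35 against 0.08 over all genes. Inhibitory receptors were too low to be tested but for 3 of 13 genes, of which none passed.

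Few genes were called with age within the Ccl5-high cells. Old and young pools were compared over 2975 genes with a UMI in at least 10% of the cells of each age, again by edgeR's quasi-likelihood method and Benjamini-Hochberg adjustment. It called 8 genes (0.269%), 7 higher (0.235%) and 1 lower (0.0336%) in old cells, and 239 genes had an unadjusted p under 0.05. Genes whose 2 old pools lay on the same side of both young pools were more common, 18.2% above and 19.1% below, so that this alone says little. The genes that rose were Ly6a, S100a6, Fcgrt, Gzmm, Klrk1, Ctla2a and Id2, and Smc4 fell.

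S100a6 was at 355 and 444 CPM in young and 1778 and 2022 CPM in old Ccl5-high cells. The pools of the 2 ages did not overlap, and the log2 fold change was 2.27 ± 0.17 (SE, adjusted p = 3.66e-05), a 4.84-fold rise. A S100a6 UMI was found in 51.7% and 43.2% of young cells and in 97.9% and 100% of old cells, and with each cell thinned to 1000 UMIs in 27.6% and 21.0% against 75.3% and 77.1%. At 12 or more Ccl5 UMIs, which removes the intermediate young cells, the log2 fold change was 1.98 ± 0.19 (adjusted p = 0.00019). B cells of the same pools also held more, at 563 and 414 CPM in young and 3026 and 1089 CPM in old pools. In Ccl5-high cells without a UMI of the B cell genes Cd79b or Ms4a1 the change was as large, at 2.35 ± 0.19 (adjusted p = 1.05e-18). Here and below, each fit estimates the spread anew, so that the size of its adjusted p cannot be set against that of another fit.

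Ly6a (Sca-1), a surface protein of stem cells and of activated and memory lymphocytes that interferon raises, had the largest fold change. It was at 39.7 and 36.2 CPM in young and 284 and 432 CPM in old cells, without overlap (3.18 ± 0.32, adjusted p = 0.000509, a 9.04-fold rise). Of the young cells 11.2% and 11.1% had a UMI, and of the old cells 56.7% and 51.4%. Other cells of the old pools held more as well, with 291 and 424 CPM in old Ccl5-low cells (5 UMIs in each pool) against 51.6 and 57.9 CPM in young ones, and with 900 and 892 CPM in old B cells against 519 and 481 CPM. Without the cells with Cd79b or Ms4a1 the log2 fold change was 2.80 ± 0.36 (adjusted p = 3.14e-09). The gene lies at chr15:74994877-74998031 (GRCm38) among near-identical Ly6 genes, and its neighbours Ly6c2 (0.85 ± 0.19, adjusted p = 0.17) and Ly6e (0.56 ± 0.13, adjusted p = 0.23) did not pass.

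Of the cytotoxic genes, Gzmm was at 150 and 109 CPM in young and 440 and 452 CPM in old cells, without overlap (1.77 ± 0.20, adjusted p = 0.0013, a 3.41-fold rise). It came with the label as a marker, but the rule does not read it. B cells held at most 1.11 CPM of Gzmm in any pool. Klrk1 was at 165 and 139 against 347 and 353 CPM, again without overlap (1.20 ± 0.20, adjusted p = 0.0252). At 12 or more Ccl5 UMIs, where the young levels were 204 and 190 CPM, Klrk1 did not pass (0.85 ± 0.20, adjusted p = 0.23), nor did it without cells carrying platelet transcripts (1.01 ± 0.27, adjusted p = 0.0579). Ctla2a, an inhibitor of cathepsin-type proteases in activated T cells, was at 373 and 275 against 680 and 798 CPM (1.18 ± 0.18, adjusted p = 0.0138) and did not pass at 12 or more Ccl5 UMIs (0.99 ± 0.19, adjusted p = 0.0744). It was also present in old B cells, at 328 and 205 CPM against 3.86 and 11.2 CPM in young ones, and the part of free RNA in its rise was not tested beyond the cells without Cd79b or Ms4a1 (0.95 ± 0.19, adjusted p = 0.00115).

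Fcgrt, the Fc receptor that recycles immunoglobulin G and albumin, was at 64.0 and 48.3 CPM in young and 240 and 226 CPM in old cells (2.04 ± 0.26, adjusted p = 0.00303, a 4.12-fold rise). The ages did not overlap, and B cells were between 20.5 and 29.4 CPM in all pools. Id2, an inhibitor of E proteins needed for effector Cd8 T cells, was at 355 and 374 against 658 and 659 CPM (0.87 ± 0.15, adjusted p = 0.0287). It was the weakest of the calls and was lost with DESeq2 (adjusted p = 0.0570) and at 12 or more Ccl5 UMIs (0.63 ± 0.16, adjusted p = 0.399). The call of Id2 was also lost at 5 or more Ccl5 UMIs, after thinning and with the pool number as a block. Smc4, a condensin subunit that compacts chromosomes, fell by 1.51 ± 0.25 on the log2 scale, from 227 and 226 to 76.5 and 86.5 CPM (adjusted p = 0.0252). Its call was lost without old 1 (adjusted p = 0.0939), with DESeq2 (adjusted p = 0.0994) and at 12 or more Ccl5 UMIs (adjusted p = 0.0744), while its log2 fold change was between -1.62 and -1.30 over all 16 alternatives. The next genes with lower levels in old cells, Rhoh, Adrbk1, Tspan13 and the pseudogene Rpl6l, did not pass, at adjusted p of 0.15, 0.27, 0.30 and 0.30.

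**Figure D4:**
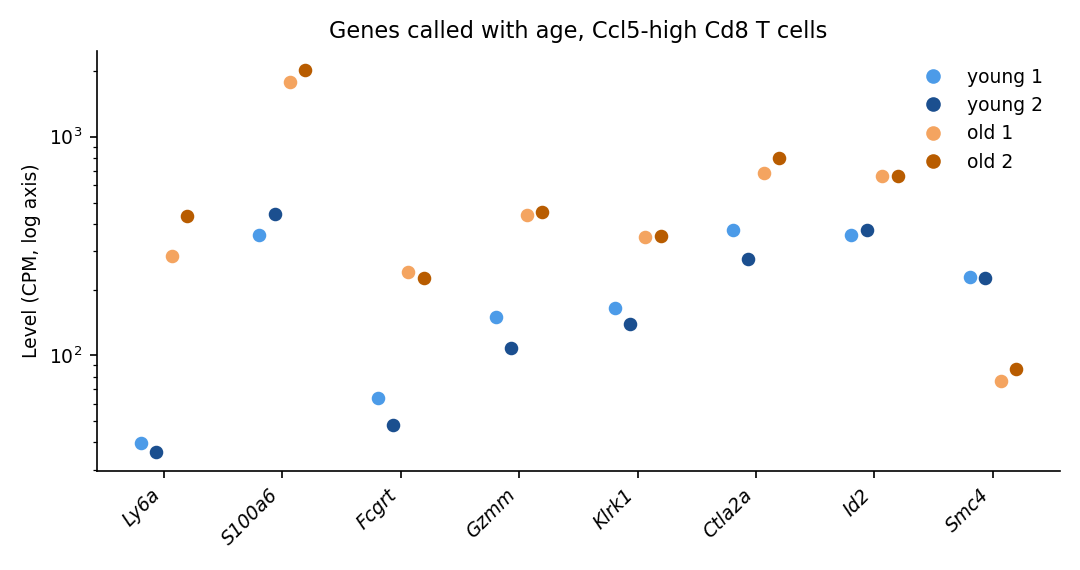
Levels (CPM, log axis) of the 8 genes called with age in Ccl5-high cells, with 1 point for each pool, young in blue and old in orange. For each gene the 2 old pools lie on 1 side of the 2 young pools, above them for 7 genes and below them for Smc4.

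**Figure D5:**
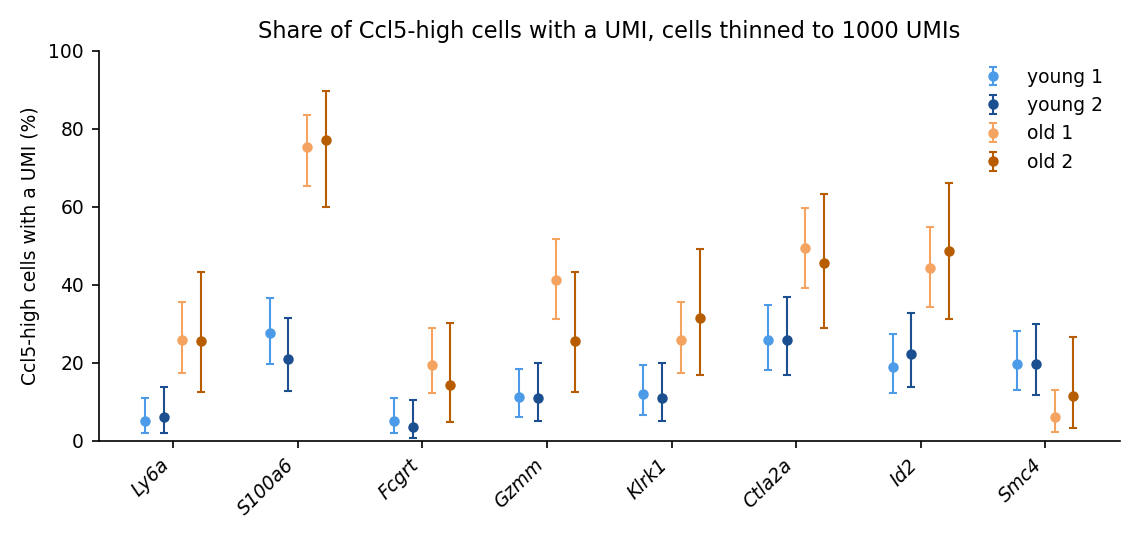
Share of Ccl5-high cells with a UMI (percent) of each gene called with age after every cell was thinned to 1000 UMIs, per pool, with 95% exact binomial intervals that cover counting error only. S100a6 stands apart most, at 27.6% and 21.0% of young cells against 75.3% and 77.1% of old cells, while the intervals of old 2 (35 cells) overlap those of a young pool for each of the other genes.

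S100a6, Ly6a and Fcgrt were called under every alternative in which they were tested, 17, 16 and 16 of them. Without the cells carrying Ppbp, Pf4 or Gng11, transcripts of platelets, 116 and 78 young but only 46 and 19 old cells were left, and 17 genes were called, 7 of the 8 among them. Without the cells holding Cd79b or Ms4a1, 74 of 116 and 51 of 81 young and 47 of 97 and 24 of 35 old cells were left. There 15 genes were called with all 8 among them. Leaving out young 1, young 2, old 1 or old 2 gave 20, 27, 39 and 44 calls, which held 8, 8, 7 and 8 of the 8 genes. An age then had 1 pool, assumed to vary like the pools of the other age, so that these counts are no measure of stability.

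The promoters of the genes that rose with age were searched for the core sites of factors of these cells. The genes were chosen by that rise, which does not show that they share a factor. RefSeq (GRCm38.p6) gave promoters for 6 of the 7 genes, 8 promoters in all, with more than 1 for Gzmm and for Ctla2a. In the 250 bases before the start of transcription, the Runx core TGTGGT or its reverse complement ACCACA was in 3 of the 8 promoters (37.5%), those of S100a6, Klrk1 and Gzmm, against 14.0% of 32851 promoters. Of 88 promoters of genes higher in Ccl5-high than in Ccl5-low cells 27.3% held it, and of 27 promoters of genes lower 11.1%. The T-box core AGGTGT or ACACCT was in 0 of the 8 promoters, in 11.4% and 25.9% of the same groups and in 11.8% of all. A match is a description of the letters and not a bound site, and the shares of so few promoters were not tested against those of all promoters. The 3 sequences with a Runx core are shown 5′ to 3′ on the strand of the gene, with each core in capitals on either strand, for S100a6 at chr3:90612644-90612893 on the plus strand, Klrk1 at chr6:129623865-129624114 on the minus strand and Gzmm at chr10:79688770-79689019 on the plus strand.
S100a6: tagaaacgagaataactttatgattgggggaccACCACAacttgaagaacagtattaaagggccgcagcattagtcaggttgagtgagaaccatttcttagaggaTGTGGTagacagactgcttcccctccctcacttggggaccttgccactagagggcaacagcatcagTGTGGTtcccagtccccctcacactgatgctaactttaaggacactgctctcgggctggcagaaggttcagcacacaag
Klrk1: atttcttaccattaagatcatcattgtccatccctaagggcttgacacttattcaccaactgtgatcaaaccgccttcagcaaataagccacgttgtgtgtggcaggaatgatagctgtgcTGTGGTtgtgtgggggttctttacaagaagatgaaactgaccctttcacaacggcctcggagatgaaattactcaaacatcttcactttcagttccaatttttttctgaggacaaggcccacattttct
Gzmm: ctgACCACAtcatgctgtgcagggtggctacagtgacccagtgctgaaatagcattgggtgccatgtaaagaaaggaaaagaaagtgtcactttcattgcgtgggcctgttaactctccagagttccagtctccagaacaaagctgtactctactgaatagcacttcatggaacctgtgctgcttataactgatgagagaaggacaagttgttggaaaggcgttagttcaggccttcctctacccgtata
S100a6 held 3 cores and the other two held 1 each.

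In most lists that describe these cells few members or none were called with age, which does not show that the others were unchanged. Of 20 memory and homing genes tested, Ly6a and Id2 rose, and the median log2 fold change was 0.21 against -0.00 over all genes. Il2rb was at 296 and 254 against 262 and 346 CPM (0.10 ± 0.21, adjusted p = 0.98), and Eomes was at 66.2 and 75.5 against 120 and 133 CPM without passing (0.82 ± 0.28, adjusted p = 0.45). Of 16 naive genes none was called, at a median of -0.48, with Lef1 at 260 and 151 against 134 and 99.8 CPM (-0.78 ± 0.28, adjusted p = 0.52) and Dapl1 at 176 and 124 against 76.5 and 79.8 CPM (-0.97 ± 0.29, adjusted p = 0.37). Of 27 granule and effector genes Gzmm and S100a6 rose (median 0.35), and of 8 NK-type receptors Klrk1 rose (median 0.35). Klrc1, at 75.0 and 75.5 against 158 and 113 CPM, did not pass (0.92 ± 0.26, adjusted p = 0.36), and Klra7 overlapped between ages.

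No member was called among 21 MHC class I genes (median 0.40), 13 interferon response genes (0.44), 19 T cell receptor signaling genes (0.00), 19 immediate early and heat shock genes (-0.18), 6 cell cycle genes (-0.24), 11 survival genes (-0.02) or 91 ribosomal protein genes (-0.10). The medians of the MHC class I and interferon lists lay above that of all genes without a single gene passing, as for H2-K1 at 1385 and 1238 against 1821 and 1690 CPM (0.44 ± 0.12, adjusted p = 0.32). Bcl2 was at 803 and 749 against 1133 and 818 CPM (0.36 ± 0.14, adjusted p = 0.52). Cd28, the costimulatory receptor, was at 157 and 166 against 153 and 206 CPM (0.11 ± 0.25, adjusted p = 0.99). The senescence genes Cdkn1a and Cdkn2a were barely detected, with 1, 0, 3 and 0 UMIs and 0, 2, 2 and 0 UMIs, and were not tested.

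Single Ccl5-high cells differed within a pool. In young 2, UMIs of the inhibitory receptors Pdcd1 (PD-1) and Lag3 were found in 10 and 14 of 81 cells, and 9 cells had both. Of the 31 Pdcd1 UMIs 13 lay in 1 cell. In Ccl5-low cells of young 2 each of these genes had a UMI in 1.02% of cells, at a median depth of 3156.5 against 3995 UMIs, and B cells of young 2 held 0.225 CPM of Pdcd1 and 2.02 CPM of Lag3 against 93.6 and 90.6 CPM in Ccl5-high cells. In young 1, old 1 and old 2 Pdcd1 was found in 1, 2 and 0 cells and Lag3 in 1, 2 and 1, never together. Young 2 also led for Gzma, granzyme A, with 312 UMIs in 21 cells, against 79 UMIs in 23 cells of young 1, 47 in 9 cells of old 1 and none in the 35 cells of old 2, which allows a share of cells with a UMI of up to 8.57% and sets no limit on cells that express the gene. Gzma is abundant in NK cells, and B cells held it at 65.0, 60.5, 9.52 and 13.7 CPM. For Pdcd1 and Lag3, 1 of the 2 young pools decides the values, so they are not a difference between ages. Gzma was found in 23 of 116 and 21 of 81 young cells against 9 of 97 and 0 of 35 old cells. Its change with age was not tested.

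A S100a6 UMI was found in nearly all old cells and a Ly6a UMI in part of them. In old 1, 53 of 97 cells had both S100a6 and Ly6a and in old 2 18 of 35, against 10 of 116 and 6 of 81 in the young pools. At least 1 Ly49 transcript (any Klra gene) was found in 51 of 116, 29 of 81, 50 of 97 and 20 of 35 cells. Such counts depend on the depth of the cells and on the level of the gene, which was higher for S100a6 than for Ly6a. A missing UMI does not show that a gene was not expressed.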

How the data were processed

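Peripheral blood of C57BL/6 female mice was profiled with 10x Genomics 3′ expression libraries in 4 pools. Per the paper's methods and the submitters' processing notes, the authors ran Cell Ranger on mm10, merged both libraries per age and removed outlying cells with Seurat 2.3.0. The deposited values are whole UMI counts of 14697 genes, not normalized. Whether merging equalised depth is not stated. They were used unchanged, and the pool of each cell was read from the deposited list of cells. Doublets were not called. The limits on Cd79a and Lyz2 do not remove all droplets with RNA of other cells, so results are also given without cells holding Cd79b or Ms4a1, Ncr1 or Klrb1c, or platelet transcripts. UMIs were summed per pool and class and tested with edgeR 4.0.16 (TMM, glmQLFTest, Benjamini-Hochberg, threshold 0.05) in R 4.3.3, with DESeq2 1.42.0 as an alternative. The tests with age and between classes, but not the interaction, were run on simulated counts with the same dispersion for every gene. Such counts do not show how the tests behave at the spread of these pools. Pools of 1 age differed by more than counting noise (chi-square per degree of freedom 4.42 for young and 4.65 for old pools over 2983 genes). The p-values of the test with age refer to the spread between these pools, which may be technical in part. In the tests between classes and of the interaction the pool was a block, so their p-values do not measure that spread. edgeR also draws the spread of each gene toward that of all genes. Very small p-values therefore do not come from the few pools alone. Shares used exact binomial intervals and thinning to 1000 UMIs in Python 3.11.15 with scipy 1.17.1.

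The cells, markers and gene lists were chosen with earlier results of these data known. Named genes were the 12 with the largest log2 fold change per direction among those called with the same sign in every pool (with age, both old pools on 1 side of both young pools), the 4 lower genes with the smallest p where fewer than 4 were called, and list members needed to describe the cells. The limit of 12 Ccl5 UMIs, the young pools alone, and leaving out haemoglobin genes or cells with platelet transcripts were chosen after seeing the data. T cell receptor V genes were not analysed here, and 1 gene of the naive list is not reported here.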

Additional observations from a re-analysis of the deposited data

Results flagged for a closer look

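The change with age differed between Ccl5-high and Ccl5-low cells for 6 of 5330 genes tested (0.113%) by the interaction term of edgeR's quasi-likelihood test with Benjamini-Hochberg adjustment, and 455 genes had an unadjusted p under 0.05. The change with age in Ccl5-high minus that in Ccl5-low cells was positive for all 6, with log2 values of 1.99 ± 0.39 (SE) for Thy1 (adjusted p = 0.00215), 9.39 ± 2.14 for Ywhaq (0.0318), 2.62 ± 0.62 for Lgals1 (0.0386), 1.57 ± 0.38 for Hsp90ab1 (0.0386), 3.83 ± 0.93 for Epsti1 (0.0386) and 1.70 ± 0.42 for Ptma (0.0394). The old Ccl5-low cells, 9 in both pools together, held 11, 0, 3, 13, 1 and 18 UMIs of these genes in that order, so that the values rest on few counts. In Ccl5-high cells alone none of the 6 was called with age, with log2 fold changes of 0.47, 0.70, 0.64, 0.34, 0.06 and 0.05 in the same order. Ptma in Ccl5-low cells was at 1390 and 1052 CPM in young and 465 and 848 CPM in old pools. The median difference over all genes was 1.05 rather than 0, and the 6 values are to be read against it. With DESeq2 or with size factors by the RLE method no gene was called, at 89 and 183 genes with an unadjusted p under 0.05. Old 1 Ccl5-low cells held 280296 CPM of red cell transcripts against 4362 to 82406 CPM in the young ones, and without haemoglobin genes 42 genes were called. The part of red cell RNA beyond this was not tested.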

How the results depend on the processing

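Calls with age, 8 genes as reported, were 17 with edgeR's own expression filter, 65 without a filter, 15 without cells holding Cd79b or Ms4a1, 1 (S100a6) after thinning, where 805 genes were tested, 4 at 12 or more Ccl5 UMIs and 17 without cells with platelet transcripts. Leaving out a pool gave 20 to 44. DESeq2 gave 7, of which 6 were shared. Calls between classes, 114 as reported, were 32 with DESeq2, 25 after thinning and 181 in the young pools alone, and 16 to 116 when a pool was left out. Genes whose change with age differed between classes, 6 as reported, were 0 with DESeq2, 0 with RLE factors, 30 without a filter, 2 at 5 or more and 3 at 12 or more Ccl5 UMIs, 21 after thinning, 18 without ribosomal protein genes, 128 without cells with platelet transcripts, 42 without haemoglobin genes and 0 to 127 when a pool was left out. The difference in the Ccl5-high share was 30.1 points over all Cd8 T cells and 47.2 to 58.2 points when a pool was left out. Where the construction did not show it, the cause was not tested. No value changed direction. Trdc and Ighd, also meant for leaving out cells with gamma delta T or B cell RNA, were not analysed here. Of 693 gene values under alternatives, 566 kept their side of the threshold, 123 lost and 4 gained a call.

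Pools share the numbers 1 and 2 across ages, but the labels do not pair them, and the differences between pools of the same age correlated at r = 0.0158 over 2983 genes. With the number as a replicate block there were 7 calls with age, 123 between classes and 35 for the difference in the change with age, and without the block of pools there were 138 between classes. The 2 pools per age and the 35 cells of old 2 limit the precision.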
